A study of Homo sapiens with 12 samples.

Results

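The BCL2 family decides whether mitochondria release the proteins that start the caspase cascade of apoptosis. Here 10 of its genes were followed by gene name in the raw count tables of KYSE30 cells and of libraries labelled U138MG, and rows were joined by Ensembl identifier without its version. These were 6 BH3-only genes (*BBC3*, *PMAIP1*, *BCL2L11*, *BID*, *BIK* and *BMF*), 2 effectors (*BAX* and *BAK1*) and 2 anti-apoptotic genes (*BCL2L1* and *MCL1*), among 30984 genes listed for KYSE30 and 78691 listed for U138MG. All 10 were found in each table and passed the filter on low counts. The study asked how inhibition of PTDSS1, an enzyme that makes phosphatidylserine, changes transcription in tumor cells. KYSE30 is an esophageal squamous cell carcinoma line and U138MG is a glioblastoma line, and the labels give the genotype of each as WT. Each line had 3 cultures with 100 nM of the PTDSS1 inhibitor (PTDSS1i) and 3 with the DMSO vehicle, all for 48 h, so there were 4 groups and 12 poly-A RNA libraries.

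BH3-only proteins sense stress and carry a single short helix, the BH3 domain, which sits in a groove of other family members. Anti-apoptotic proteins hold the BH3-only proteins and the effectors in check. Effectors that escape this hold build pores in the outer mitochondrial membrane, and cytochrome c leaves through them. Prolonged ER stress is known to act on the family through the transcription factors ATF4 and CHOP. Several members are controlled mainly as proteins, by cleavage, phosphorylation or degradation, which RNA counts do not show.

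Total counts ranged from 18800932 to 26514658 per library. The lowest count of any member in a library was 214 in KYSE30 and 284 in the libraries labelled U138MG. The libraries labelled U138MG showed few of the listed markers of glia and glioblastoma. The squamous keratin gene *KRT5* had a mean of 1397 normalized CPM (counts relative to library size and TMM factor) in their DMSO cultures and *KRT15* had 4622. The glial genes *OLIG2* and *S100B* had 0 counts in all of these libraries. Of 11 squamous epithelial markers 9 were above 1 CPM in these DMSO libraries, and of 9 glial markers 2 were. *KRT14* and *KRT6A* were the squamous markers below it, at 0.189 and 0.464 normalized CPM. *GFAP* at 2.24 and *PTPRZ1* at 4.27 were the glial markers above it. Of 8 mesenchymal markers 5 were above 1 CPM, with *SPARC* at 677, *FN1* at 72.0 and *VIM* at 0.195 normalized CPM, and their summed level was 844 to 875 CPM with DMSO and 450 to 465 with PTDSS1i. The 11 include *KRT8*, *KRT18*, *KRT19*, *CDH1* and *EPCAM*, which are not particular to squamous epithelium. The summed level of all 11 there was 9410 to 10300 CPM with DMSO and 3650 to 3820 with PTDSS1i, and its part in the results on the members was not tested. Of the 10 tested there, 6 were lower and 4 higher at an adjusted p under 0.05, against 33.6% and 33.9% of all tested genes. *KRT15* was at 481 normalized CPM with PTDSS1i, while *KRT18* went from 645 to 892. In KYSE30, 9 of the 11 markers were above 1 CPM, with *KRT5* at 0 to 3 counts. The summed level was 10400 to 11200 with DMSO and 13700 to 14200 with PTDSS1i. Most of it was *KRT8*, *KRT19* and *KRT18*, at 4452, 2689 and 2350 normalized CPM with DMSO. Of the 9 glial markers 1 was above 1 CPM in the KYSE30 controls, *PTPRZ1* at 7.67 normalized CPM. The summed glial level with DMSO was 5.93 to 10.5 CPM in KYSE30 and 8.06 to 8.41 in the libraries labelled U138MG. KYSE30 was sequenced as batch1 and U138MG as batch2 in the labels, so line and batch cannot be told apart.

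RefSeq promoter windows, from 250 bases before to 50 bases after a gene's start on GRCh38.p14, were given for 8 of the 10 members, 14 windows in all. Shown are the windows of the members with the largest changes in either line (*PMAIP1*, *BBC3*, *BAK1* and *BMF*) and of *BCL2L11*, which like *BMF* moved in opposite directions in KYSE30 and in the libraries labelled U138MG. Each is printed 5′ to 3′ on the strand of the gene. *BMF* has another window, chr15:40106917-40107216, which is not printed. Capitals mark matches to any of 4 motifs, searched on both strands: TGACGT, the half-site of ATF and CREB factors, TGATGNAA, the element bound by ATF4 with C/EBP factors, GTAAACA, the forkhead motif, and CACGTG, the E-box. The motifs were chosen with results of these data known.
PMAIP1, chr18:59899746-59900045, plus strand: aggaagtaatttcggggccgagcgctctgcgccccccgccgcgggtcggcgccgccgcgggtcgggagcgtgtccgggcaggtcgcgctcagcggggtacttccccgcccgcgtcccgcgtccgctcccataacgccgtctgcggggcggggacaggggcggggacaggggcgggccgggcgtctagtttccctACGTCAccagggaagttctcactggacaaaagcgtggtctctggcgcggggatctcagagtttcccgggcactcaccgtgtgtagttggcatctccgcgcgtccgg
BBC3, chr19:47232618-47232917, minus strand: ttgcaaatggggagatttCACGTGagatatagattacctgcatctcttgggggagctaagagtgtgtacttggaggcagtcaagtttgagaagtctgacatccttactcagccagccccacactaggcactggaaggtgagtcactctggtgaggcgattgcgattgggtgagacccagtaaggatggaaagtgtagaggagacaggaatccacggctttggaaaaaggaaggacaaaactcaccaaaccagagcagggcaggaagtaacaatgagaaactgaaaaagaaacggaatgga
BMF, chr15:40108830-40109129, minus strand: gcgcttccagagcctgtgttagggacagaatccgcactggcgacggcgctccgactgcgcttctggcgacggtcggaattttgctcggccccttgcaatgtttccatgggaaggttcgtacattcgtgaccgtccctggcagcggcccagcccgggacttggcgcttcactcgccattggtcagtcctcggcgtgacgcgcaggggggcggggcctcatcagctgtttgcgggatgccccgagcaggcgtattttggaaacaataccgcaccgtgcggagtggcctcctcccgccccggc
BCL2L11, chr2:111120664-111120963, plus strand: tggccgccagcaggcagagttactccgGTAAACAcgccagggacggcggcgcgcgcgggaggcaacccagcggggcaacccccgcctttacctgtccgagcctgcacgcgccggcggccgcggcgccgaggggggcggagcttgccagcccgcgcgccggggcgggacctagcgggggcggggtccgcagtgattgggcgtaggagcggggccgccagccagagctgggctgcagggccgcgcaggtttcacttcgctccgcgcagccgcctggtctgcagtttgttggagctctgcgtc
BAK1, chr6:33580227-33580526, minus strand: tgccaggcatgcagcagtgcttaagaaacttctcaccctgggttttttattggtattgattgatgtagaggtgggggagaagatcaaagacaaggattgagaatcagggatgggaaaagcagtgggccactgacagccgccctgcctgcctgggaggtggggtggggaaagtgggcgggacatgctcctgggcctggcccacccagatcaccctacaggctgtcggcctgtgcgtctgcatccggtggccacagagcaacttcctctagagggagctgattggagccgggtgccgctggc

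TGACGT was found in the *PMAIP1* window, printed as ACGTCA 56 bases before the start, and 7.98% of 35116 RefSeq windows of this length hold it. GTAAACA was found in the *BCL2L11* window 223 bases before the start, against 3.42% of all windows. CACGTG was found in *BBC3*, 232 bases before the start, and in windows of *BID* and *BAX* that are not printed, against 7.26% of all windows. The *BAX* window holds it 4 times, all before the start and the nearest 14 bases away. TGATGNAA, held by 3.62% of all windows, was in none of the 14 windows of the members, and the windows of *BAK1* and *BMF* held none of the 4 motifs. A match is a string of letters and not evidence of binding.

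In KYSE30, 7 members were higher and 2 were lower after PTDSS1i at an adjusted p under 0.05, and *BAK1* did not pass the test. Most tested genes moved in these cells: 62.0% of 16389 passed, 30.1% as higher and 32.0% as lower. Treated and control cultures were fully apart for 8 of the 10 members, against 66.3% of all tested genes. In the libraries labelled U138MG, 8 members were higher and 2 were lower, against 67.5% of 17666 tested genes passing, 33.9% as higher and 33.6% as lower. There the treatments did not overlap for any of the 10, against 71.4% of all genes. The median log2 fold change of the members was 0.54 in KYSE30 and 0.51 in the libraries labelled U138MG, where that of all tested genes was -0.0255 and -0.0258. Scaling by library size alone moved the median of all genes to -0.130 and -0.172, and the share of higher genes among those called from 48.5% to 37.8% and from 50.3% to 37.1%. The members were then 6 higher and 3 lower in KYSE30 and 7 higher and 2 lower in the libraries labelled U138MG. The members were chosen with earlier results known, so these counts are a description.

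**Figure D1:**
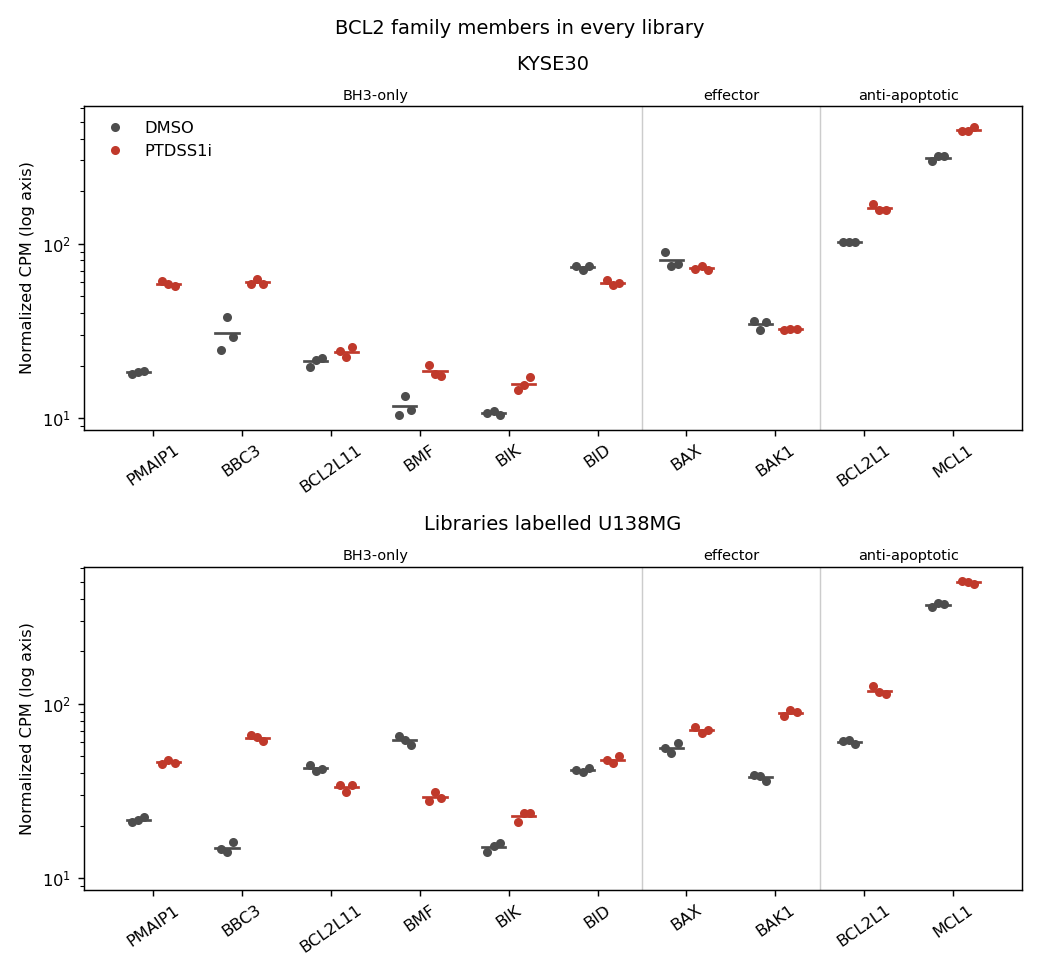
Normalized CPM (log axis) of the 10 members in every library, for KYSE30 (top) and the libraries labelled U138MG (bottom), with DMSO in grey and PTDSS1i in red. Points are single libraries and bars are group means of 3. *PMAIP1*, *BBC3*, *BCL2L1* and *MCL1* lie higher with PTDSS1i in both panels, while *BMF* rises in the top panel and falls in the bottom one.

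Among the BH3-only genes, *PMAIP1* and *BBC3* rose in both sets of libraries, and which of them rose more differed. *PMAIP1* encodes NOXA, which binds MCL1 and marks it for degradation. In KYSE30 it had 18.0, 18.4 and 18.5 normalized CPM in the DMSO cultures and 61.2, 58.4 and 57.5 in the PTDSS1i cultures. Every treated culture was far above every control. The log2 fold change was 1.69 (standard error 0.064, edgeR quasi-likelihood test, Benjamini-Hochberg adjusted p = 1.68e-15), a 3.23-fold rise, and 2.09% of tested genes rose more. *PMAIP1* was the only member past a log2 fold change of 1 in KYSE30, where 6.40% of tested genes were higher and 7.04% lower by that much. The libraries labelled U138MG had 21.0, 21.6 and 22.5 normalized CPM with DMSO and 45.4, 47.5 and 46.0 with PTDSS1i. The log2 fold change was 1.09 (95% confidence interval 0.97 to 1.22), and again no library of one treatment reached the other.

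*BBC3* encodes PUMA, a BH3-only protein that binds all anti-apoptotic members. The libraries labelled U138MG had 14.7, 14.1 and 16.1 normalized CPM with DMSO and 66.3, 64.6 and 61.2 with PTDSS1i. This was the largest change of any member, a log2 fold change of 2.10 (standard error 0.063, edgeR quasi-likelihood test, Benjamini-Hochberg adjusted p = 9.24e-22), or 4.28-fold, and 2.35% of tested genes rose more. In KYSE30 it had 24.7, 38.1 and 29.1 normalized CPM with DMSO and 58.3, 62.6 and 59.0 with PTDSS1i. The treated cultures lay close together and the controls were spread, with DMSO replicate 2 well above its fellows. The log2 fold change was 0.97 (95% confidence interval 0.61 to 1.33, edgeR quasi-likelihood adjusted p = 0.00133). A stretch of 2.52% of the exon bases of *BBC3* overlaps 2 microRNA genes.

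*BMF* and *BCL2L11* both encode BH3-only proteins that are known to be held at the cytoskeleton, and both were higher in KYSE30 and lower in the libraries labelled U138MG. *BMF* had 10.5, 13.5 and 11.1 normalized CPM in the KYSE30 controls and 20.2, 18.0 and 17.5 with PTDSS1i, a log2 fold change of 0.67 (95% confidence interval 0.47 to 0.88). With the U138MG label it began far higher, at 65.3, 62.4 and 57.7, and fell to 27.7, 31.4 and 28.7. That log2 fold change was -1.08 (standard error 0.059, edgeR quasi-likelihood test, Benjamini-Hochberg adjusted p = 9.89e-16), a level 2.11-fold lower. In neither set did the treatments overlap. *BMF* was the only member lower by more than 1 on the log2 scale in the libraries labelled U138MG, where 11.6% of tested genes were, and 3 members were higher by more than 1 (*BBC3*, *BAK1* and *PMAIP1*), where 8.19% were.

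*BCL2L11* encodes BIM, which binds all anti-apoptotic members and can activate the effectors directly. The libraries labelled U138MG had 44.7, 41.0 and 42.3 normalized CPM with DMSO and 34.2, 31.2 and 34.1 with PTDSS1i. All treated cultures were below all controls, with a log2 fold change of -0.36 (95% confidence interval -0.48 to -0.24). In KYSE30 it had 19.7, 21.7 and 22.0 with DMSO and 24.3, 22.4 and 25.5 with PTDSS1i. These groups were separated by a narrow gap only, and the log2 fold change was 0.19 (standard error 0.076, edgeR quasi-likelihood adjusted p = 0.0370). This call was lost under 9 of 15 alternatives, with an adjusted p of 0.105 without DMSO replicate 1, 0.0834 without PTDSS1i replicate 1 and 0.173 without PTDSS1i replicate 3 in the same edgeR test. In exons, 10.9% of *BCL2L11* lies opposite *MIR4435-2HG*, a long non-coding RNA gene with 283 to 1112 counts per library, and the use of strand in counting is not stated.

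*BIK* encodes a BH3-only protein of the ER membrane, and *BID* encodes a protein that caspase-8 cleaves to link death receptors to mitochondria. *BIK* had 10.6, 11.0 and 10.4 normalized CPM in the KYSE30 controls and 14.4, 15.4 and 17.2 with PTDSS1i. Under the U138MG label it had 14.2, 15.4 and 16.0 with DMSO and 21.1, 23.6 and 23.7 with PTDSS1i. It rose in both, by log2 fold changes of 0.56 (95% confidence interval 0.36 to 0.75) and 0.59 (0.42 to 0.75). *BID* had 74.0, 70.6 and 74.6 normalized CPM in the KYSE30 controls and 61.9, 58.0 and 59.5 with PTDSS1i, a log2 fold change of -0.29 (95% confidence interval -0.40 to -0.17). It went the other way in the libraries labelled U138MG, from 41.5, 40.8 and 42.6 to 47.8, 45.7 and 50.2, a log2 fold change of 0.20 (edgeR quasi-likelihood adjusted p = 0.00135). That rise was 0.057 (edgeR adjusted p = 0.343) with scaling by library size alone and 0.058 (edgeR adjusted p = 0.339) with upper-quartile scaling.

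The effector genes rose in the libraries labelled U138MG and did not rise in KYSE30. *BAK1* encodes BAK, the effector that resides in the outer mitochondrial membrane. Cultures labelled U138MG had 39.1, 38.5 and 36.0 normalized CPM with DMSO and 84.8, 92.1 and 89.3 with PTDSS1i. The log2 fold change was 1.23 (standard error 0.049, edgeR quasi-likelihood test, Benjamini-Hochberg adjusted p = 8.19e-19), a 2.34-fold rise with a wide gap between treatments. In KYSE30 it had 36.0, 31.9 and 35.6 with DMSO and 32.1, 32.4 and 32.6 with PTDSS1i. The groups overlapped there, and the log2 fold change was -0.093 (95% confidence interval -0.23 to 0.044, edgeR adjusted p = 0.229). With scaling by library size alone it was -0.20 (edgeR adjusted p = 0.0123). The pseudogene *BAK1P1*, which could share reads with *BAK1*, had at most 15 counts in a library.

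*BAX* encodes the effector that moves from the cytosol to mitochondria. Cultures labelled U138MG had 55.8, 52.5 and 59.8 normalized CPM with DMSO and 73.3, 68.0 and 70.5 with PTDSS1i, with no overlap and a log2 fold change of 0.33 (95% confidence interval 0.23 to 0.44). In KYSE30 it had 90.1, 74.5 and 76.9 with DMSO and 71.7, 74.7 and 70.8 with PTDSS1i. DMSO replicate 1 stood above all others, and treated and control cultures overlapped. The log2 fold change was -0.15 (standard error 0.064, edgeR quasi-likelihood adjusted p = 0.0447). Without DMSO replicate 1 it was -0.060 (edgeR adjusted p = 0.347). The call was also lost without any one of the PTDSS1i replicates, with edgeR adjusted p from 0.0613 to 0.148.

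The anti-apoptotic genes rose in both sets of libraries. *BCL2L1* encodes BCL-xL and its short pro-apoptotic splice form, which gene counts do not separate. It had 102.2, 101.6 and 102.4 normalized CPM in the KYSE30 controls and 169.6, 156 and 155 with PTDSS1i, a log2 fold change of 0.65 (standard error 0.052, edgeR quasi-likelihood adjusted p = 4.22e-10). Under the U138MG label it had 61.0, 62.2 and 58.9 with DMSO and 126, 117 and 114 with PTDSS1i. There the log2 fold change was 0.97 (95% confidence interval 0.88 to 1.06), a 1.96-fold rise. Of its exon bases 43.0% lie opposite *ABALON*, an antisense gene that was given 0 to 4 counts in KYSE30 and 0 to 22 in the libraries labelled U138MG.

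*MCL1* encodes a short-lived anti-apoptotic protein that is lost quickly when translation stops. It had 299.5, 318 and 317 normalized CPM in the KYSE30 controls and 444, 443.5 and 463.5 with PTDSS1i, a log2 fold change of 0.53 (95% confidence interval 0.43 to 0.64). Cultures labelled U138MG had 361, 377 and 371.5 with DMSO and 504.5, 497 and 489 with PTDSS1i, a log2 fold change of 0.43 (95% confidence interval 0.36 to 0.49). The treatments were apart in both sets, and the rise was 1.45-fold in KYSE30 and 1.34-fold in the libraries labelled U138MG.

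**Figure D2:**
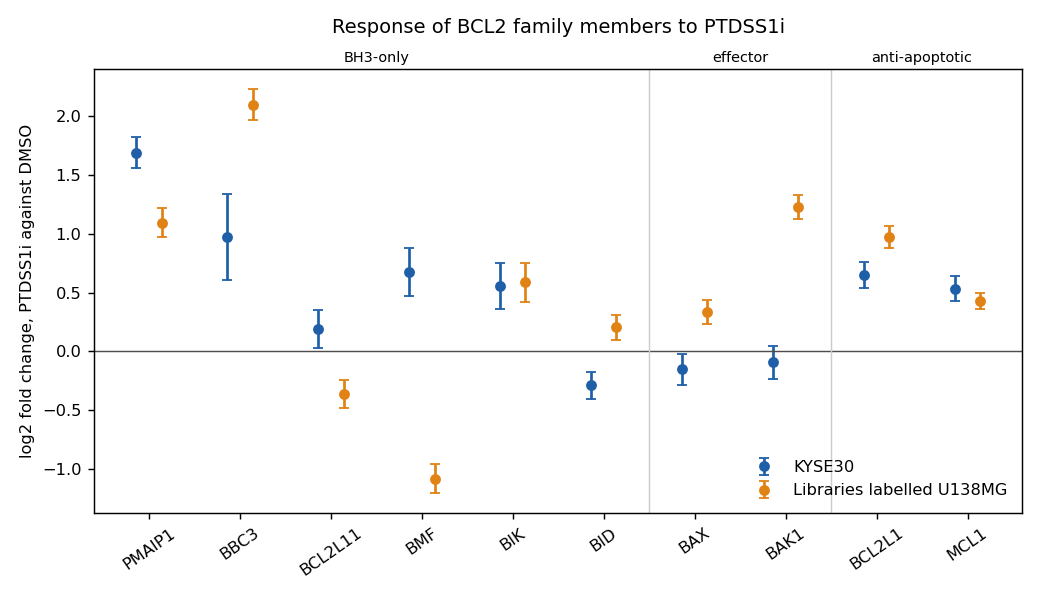
log2 fold change of each member, PTDSS1i against DMSO, by role, with 95% confidence intervals from the edgeR fit (3 libraries per group). KYSE30 is in blue and the libraries labelled U138MG are in orange. *BMF* lies at 0.67 in KYSE30 and -1.08 in the libraries labelled U138MG, and *BAK1* at -0.093 and 1.23, while the intervals of *BIK* nearly coincide.

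The difference in response was tested for each member as the interaction of line and treatment over 18405 genes in both tables, of which 49.9% passed. It passed for 9 of 10 members. *BMF* differed most: its log2 fold change was lower in the libraries labelled U138MG by 1.79 (difference -1.79, standard error 0.11, edgeR interaction test, Benjamini-Hochberg adjusted p = 2.60e-14). *BAK1* followed with a difference of 1.28 (95% confidence interval 1.11 to 1.45) and *BBC3* with 1.08 (0.72 to 1.45), both higher in the libraries labelled U138MG. *PMAIP1* rose more in KYSE30, with a difference of -0.64 (95% confidence interval -0.81 to -0.46). The difference was -0.59 for *BCL2L11*, 0.45 for *BID*, 0.45 for *BAX* and 0.28 for *BCL2L1*. For *MCL1* it was only -0.15 (edgeR interaction test, adjusted p = 0.0413), and this call was lost under 7 of 20 alternatives. Among them, the edgeR adjusted p was 0.0827 without KYSE30 PTDSS1i replicate 3, and 0.104, 0.0524 and 0.0574 without DMSO replicate 2, PTDSS1i replicate 2 and PTDSS1i replicate 3 labelled U138MG. For *BIK* the difference was -0.011, with a 95% confidence interval of -0.26 to 0.24 (edgeR adjusted p = 0.989).

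By direction, 5 members were higher in both sets (*BBC3*, *PMAIP1*, *BIK*, *BCL2L1* and *MCL1*), as were 18.5% of the 13990 genes tested in both. Higher in KYSE30 and lower in the libraries labelled U138MG were *BMF* and *BCL2L11*, as were 6.11% of genes. Lower in KYSE30 and higher in the libraries labelled U138MG were *BID* and *BAX*, as were 8.82% of genes. Of these 4 members, only *BMF* held its calls in both sets under every alternative that kept the threshold at an adjusted p under 0.05 with no fold limit.

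**Figure D3:**
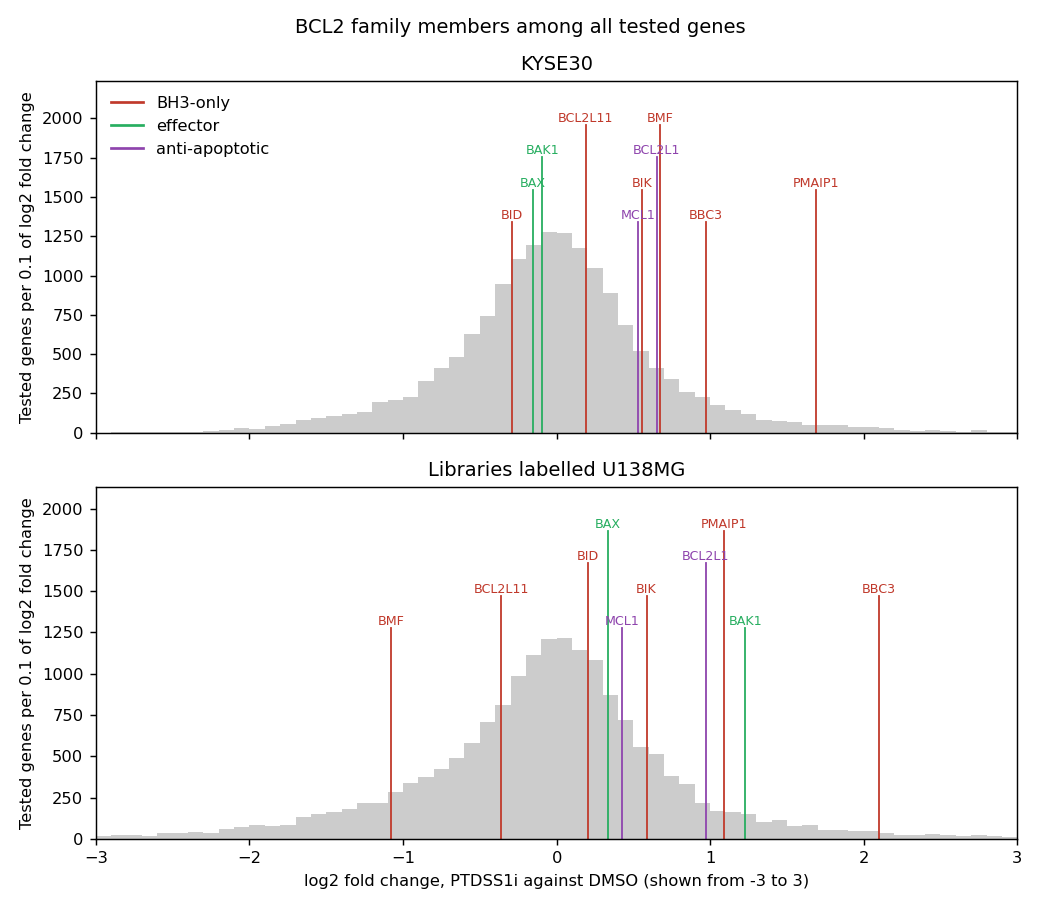
Distribution of the log2 fold change of all tested genes (grey bars, genes per 0.1) for KYSE30 (top) and the libraries labelled U138MG (bottom), with each member drawn as a line colored by role. *PMAIP1* at 1.69 in KYSE30 and *BBC3* at 2.10 in the libraries labelled U138MG lie in the upper tail, and *BID*, *BAX*, *BAK1* and *BCL2L11* lie in the bulk of the KYSE30 distribution.

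Levels were compared between members as normalized CPM per kilobase of all annotated exons, with GENCODE 29 lengths, and each table was normalized separately. *MCL1* was the highest member in every group, at 71.3 ± 2.39 and 103.1 ± 2.59 (SD, n = 3) in KYSE30 with DMSO and PTDSS1i, and at 84.6 ± 1.93 and 113.7 ± 1.73 in the libraries labelled U138MG. In the KYSE30 controls *BAX* at 31.1 ± 3.24 and *BCL2L1* at 30.8 ± 0.126 came next and overlapped. *BID* at 16.4 ± 0.488 and *BAK1* at 15.6 ± 1.03 also overlapped, and *BIK*, *BBC3* and *PMAIP1* followed at 11.2, 9.63 and 8.18, with *BBC3* overlapping both neighbours. *BCL2L11* at 3.17 and *BMF* at 2.14 were lowest and separate. With PTDSS1i, *PMAIP1* stood at 26.4 ± 0.870, where its libraries overlapped those of *BAX* at 28.0 ± 0.806, and *BCL2L1* stood apart at 48.4 ± 2.45. *BBC3*, *BIK*, *BAK1* and *BID* followed at 18.9, 16.4, 14.6 and 13.5 with no overlap between neighbours, and *BCL2L11* at 3.61 overlapped *BMF* at 3.41.

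In the libraries labelled U138MG the order was different. With DMSO, *BBC3* was the lowest member at 4.70 ± 0.332, below *BCL2L11* at 6.41, and *BMF* at 11.3 ± 0.696 stood above *PMAIP1* at 9.71 and *BID* at 9.36, which overlapped. The upper part was *BAX* at 21.7, *BCL2L1* at 18.3, *BAK1* at 17.1 and *BIK* at 15.9, of which only *BAK1* and *BIK* overlapped. With PTDSS1i, *BAK1* was second at 40.1 ± 1.68, ahead of *BCL2L1* at 35.9, *BAX* at 27.3 and *BIK* at 23.9. *PMAIP1* at 20.7 and *BBC3* at 20.1 overlapped, *BID* followed at 10.8, and *BMF* at 5.37 and *BCL2L11* at 4.98 were lowest and overlapped. With the length of the longest transcript in place of all exons, 2 to 6 of the 45 pairs of members in a group changed order. The rank of *BAK1* with PTDSS1i under the U138MG label was among these changes. By that length *BAX* at 52.0 and *BCL2L1* at 45.6 stood above *BAK1* at 40.1.

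The balance of members with opposing roles was read as ratios of CPM per kilobase within each library, as a description with no test. NOXA acts on MCL1, and *PMAIP1* to *MCL1* was 0.117, 0.113 and 0.114 in the KYSE30 controls and 0.269, 0.257 and 0.243 with PTDSS1i, 2.23-fold higher. Under the U138MG label it began at the same level, 0.114, 0.112 and 0.118, and was 0.176, 0.187 and 0.184 with PTDSS1i, 1.59-fold higher. *BBC3* to *BCL2L1* was 2.18-fold higher with PTDSS1i in the libraries labelled U138MG, 0.561 ± 0.0138 against 0.257 ± 0.0255 (SD, n = 3), without overlap. In KYSE30 it was 0.313 ± 0.0714 and 0.391 ± 0.0299, and the treatments overlapped. Against *MCL1*, the treatments did not overlap in either set. *BBC3* to *MCL1* went from 0.135 ± 0.0269 to 0.183 ± 0.00975 in KYSE30, 1.36-fold higher. In the libraries labelled U138MG it went from 0.0556 ± 0.00421 to 0.177 ± 0.0045, 3.18-fold higher. *BMF* to *BCL2L1* went from 0.619 ± 0.0285 to 0.150 ± 0.0150 in the libraries labelled U138MG, 4.13-fold lower without overlap, and in KYSE30 the treatments overlapped at 0.0695 ± 0.00970 and 0.0703 ± 0.00192. Between the effectors, *BAK1* to *BAX* went from 0.794 ± 0.0807 to 1.47 ± 0.116 in the libraries labelled U138MG, and in KYSE30 the treatments overlapped at 0.503 and 0.523. The size of a ratio of 2 members, though not its fold change, depends on the lengths used. With longest transcripts, *BAX* at 52.0 CPM per kilobase stood above *BAK1* at 40.1 in the PTDSS1i libraries labelled U138MG.

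Levels were also summed by role, with the lengths of all annotated exons. These sums and their ratios depend on the lengths used, and they were not computed with longest transcripts. The BH3-only sum went from 50.8 ± 2.46 to 82.2 ± 0.551 CPM per kilobase in KYSE30 and from 57.4 ± 0.857 to 85.9 ± 1.48 in the libraries labelled U138MG. The anti-apoptotic sum went up alongside, from 102.1 ± 2.36 to 151 ± 2.37 and from 103 ± 2.10 to 149.6 ± 3.53. The ratio of these sums went from 0.497 ± 0.0164 to 0.543 ± 0.00593 in KYSE30 without overlap, and from 0.558 ± 0.0139 to 0.574 ± 0.0221 in the libraries labelled U138MG with overlap. The effector sum was 46.7 ± 4.00 and 42.6 ± 0.817 in KYSE30, where treatments overlapped, and went from 38.8 ± 0.935 to 67.4 ± 0.670 in the libraries labelled U138MG. The ratio of effectors to anti-apoptotic members was 1.63-fold lower with PTDSS1i in KYSE30, 0.282 ± 0.00994 against 0.458 ± 0.0498. In the libraries labelled U138MG it was 1.20-fold higher, 0.451 ± 0.0144 against 0.377 ± 0.0161. *MCL1* made up most of each anti-apoptotic sum.

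**Figure D4:**
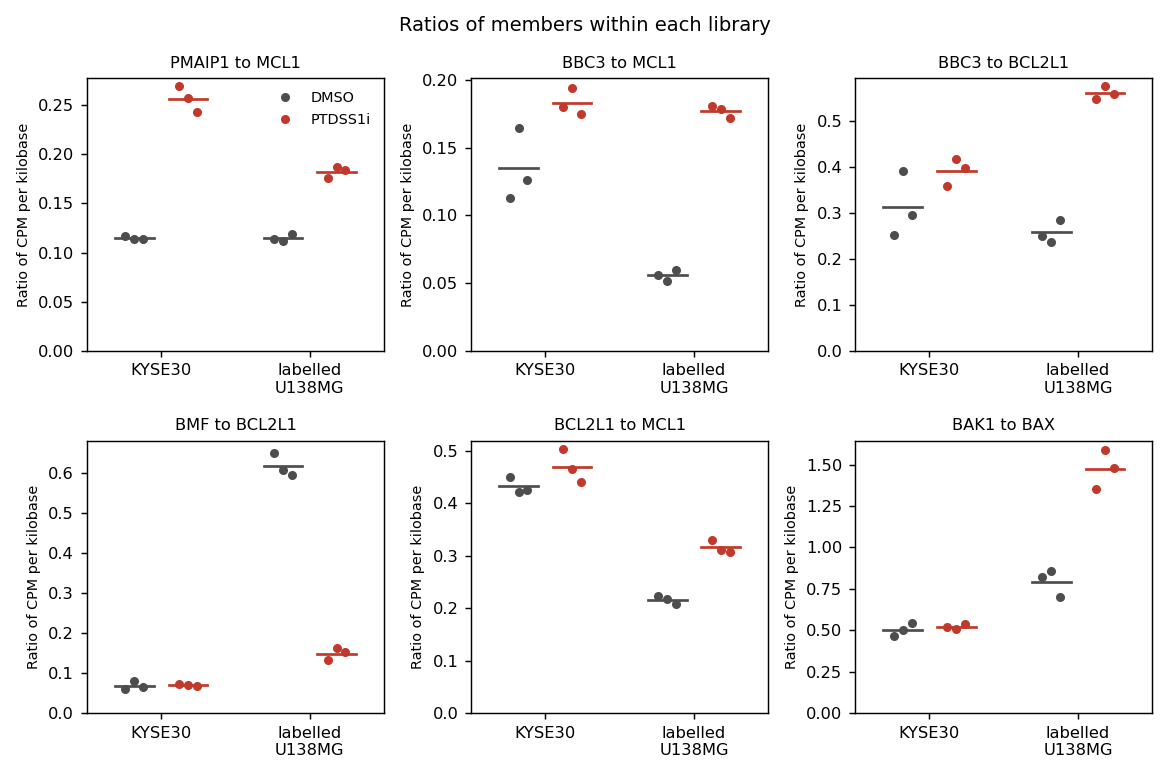
Ratios of normalized CPM per kilobase between members in each library, with DMSO in grey and PTDSS1i in red, points for libraries and bars for means of 3. *PMAIP1* to *MCL1* starts near 0.115 in both sets and stands with PTDSS1i at 0.257 in KYSE30 and 0.182 in the libraries labelled U138MG, and *BMF* to *BCL2L1* goes in the libraries labelled U138MG from 0.619 to 0.150.

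Of 13 other genes of the family, 9 were tested in KYSE30, of which 5 were higher and 2 lower, and 10 in the libraries labelled U138MG, of which 3 were higher and 4 lower. Among all tested genes, 62.0% passed in KYSE30 and 67.5% in the libraries labelled U138MG, in either direction. *BCL2*, the founding anti-apoptotic gene, fell in both, from 7.68 ± 0.985 to 4.52 ± 0.430 normalized CPM (SD, n = 3) in KYSE30, a log2 fold change of -0.76, and from 11.0 ± 1.14 to 5.35 ± 0.460 in the libraries labelled U138MG, a change on the log2 scale of -1.03. So *BCL2* moved against *BCL2L1* and *MCL1*. *BCL2L2*, which encodes the anti-apoptotic BCL-w, rose by 0.61 in KYSE30 and had a log2 fold change of 0.010 (95% confidence interval -0.079 to 0.10) in the libraries labelled U138MG. *BNIP3* and *BNIP3L*, which encode mitochondrial receptors of mitophagy, rose by 1.93 and 1.12 in KYSE30. *BNIP3* went from 64.6 ± 3.85 to 247 ± 8.26 normalized CPM there, a larger log2 fold change than that of any of the 10 members. In the libraries labelled U138MG their log2 fold changes were -0.27 (edgeR adjusted p = 0.167) and -0.031 (edgeR adjusted p = 0.745), and the differences between the lines were -2.24 and -1.19 (edgeR interaction test, adjusted p = 1.96e-07 and 6.65e-14).

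*HRK*, a BH3-only gene known from neurons, rose from 13.2 ± 0.199 to 24.5 ± 2.07 normalized CPM in the libraries labelled U138MG, a change on the log2 scale of 0.89, and was 0.18 in KYSE30 (edgeR adjusted p = 0.287). *BOK*, another effector-like gene, rose by 0.47 in the libraries labelled U138MG and was at -0.023 in KYSE30 (edgeR adjusted p = 0.815), a split of the same sign as that of *BAK1*. *BAD*, a BH3-only gene controlled by phosphorylation, was higher by 0.26 in KYSE30 and fell by 0.18 in the libraries labelled U138MG. *BCL2L12* fell in both, by 1.14 and by 0.67, and *BCL2L13* was higher in both, by 0.14 and 0.26. *BCL2L14*, tested only in the libraries labelled U138MG, had a log2 fold change of -1.59 there, at 21 to 80 counts. *BCL2A1*, *BCL2L10* and *BCL2L15* had at most 8 counts in any library.

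**Figure D5:**
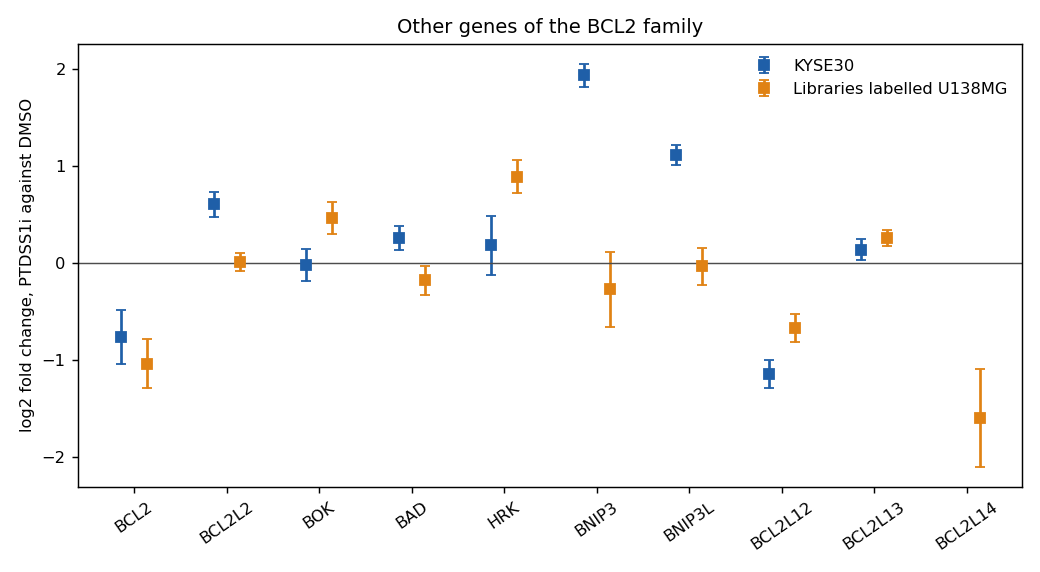
log2 fold change, PTDSS1i against DMSO, of the other tested BCL2 family genes, with 95% confidence intervals from the edgeR fit (3 libraries per group), KYSE30 in blue and the libraries labelled U138MG in orange. *BCL2* and *BCL2L12* lie below 0 in both, and *BNIP3* and *BNIP3L* lie at 1.93 and 1.12 in KYSE30 only.

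Of 16 transcription factors known to act on BCL2 family genes, 8 were higher and 6 lower in KYSE30, and 9 were higher and 4 lower in the libraries labelled U138MG. The shares of all tested genes that passed in either direction were 62.0% and 67.5%. *DDIT3*, which encodes the ER stress factor CHOP, rose by 2.03 on the log2 scale in KYSE30 and by 3.37 in the libraries labelled U138MG. *ATF3*, an ATF family gene, rose by 2.13 in KYSE30 and 3.20 in the libraries labelled U138MG. *JUN*, which encodes a subunit of AP-1, rose by 1.24 in KYSE30 and by 3.76 in the libraries labelled U138MG, in the latter from 26.4 ± 2.09 to 358 ± 3.36 normalized CPM. *TP73* fell in both, by 1.37 and by 3.10. The proliferation factor *E2F1* fell by 1.62 in KYSE30 and was at 0.15 in the libraries labelled U138MG (edgeR adjusted p = 0.107), and *SNAI2*, which encodes the *BBC3* repressor SLUG, fell by 1.94 in the libraries labelled U138MG from 13.8 ± 0.874 to 3.58 ± 0.253 normalized CPM. In KYSE30, *SNAI2* had a log2 fold change of 0.057 (edgeR adjusted p = 0.495). The forkhead gene *FOXO3*, named after its values were seen, rose by 1.33 in KYSE30 and 0.98 in the libraries labelled U138MG. The other listed forkhead gene, *FOXO1*, went the other way in KYSE30, with a log2 fold change of -0.51. Under the U138MG label it was at -0.015 (edgeR adjusted p = 0.901).

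All 12 listed ATF4-CHOP target genes were higher in both sets, against 30.1% and 33.9% of all tested genes, with median log2 fold changes of 1.35 in KYSE30 and 1.80 in the libraries labelled U138MG. This list was written with earlier results of these data known, so its count is a description and not a test. The stress cytokine gene *GDF15* rose most, by 3.71 and by 6.79, and the glutathione-degrading enzyme gene *CHAC1* rose by 2.96 and 4.36.

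Downstream of the effectors, 7 of 16 genes of the mitochondrial pathway were higher and 4 lower in KYSE30, and 9 were higher and 6 lower in the libraries labelled U138MG, with medians of 0.19 and 0.14. For all tested genes, 62.0% and 67.5% passed, with medians of -0.0255 and -0.0258. *BIRC3*, a gene of the IAP family, rose from 6.09 ± 0.706 to 34.4 ± 0.731 normalized CPM in KYSE30, a log2 fold change of 2.49, and by 0.72 in the libraries labelled U138MG. Its relative *BIRC2* rose by 0.50 in KYSE30 and was at -0.065 in the libraries labelled U138MG (edgeR adjusted p = 0.121). *XIAP*, the direct inhibitor of caspases, rose by 0.47 and 0.75. *CYCS*, which encodes cytochrome c, rose by 0.94 in the libraries labelled U138MG and was at -0.16 in KYSE30 (edgeR adjusted p = 0.108). *APAF1*, whose protein binds cytochrome c in the apoptosome, fell by 0.73 in the libraries labelled U138MG and was at 0.0081 in KYSE30 (edgeR adjusted p = 0.927). *BIRC5*, which encodes survivin and is known to follow cell division, fell by 1.61 and 1.72 in the 2 sets, and *AIFM1* fell by 0.34 and 0.18.

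Of 10 genes whose products set the amount or release of BCL2 family proteins, 3 were higher and 2 lower in KYSE30, and 3 were higher and 5 lower in the libraries labelled U138MG. Among all tested genes, 62.0% passed in KYSE30 and 67.5% in the libraries labelled U138MG. *MARCHF5*, which encodes a mitochondrial ubiquitin ligase, rose in both, by 0.57 and 0.64. *USP9X*, a deubiquitinase that spares MCL1, rose by 0.34 in KYSE30 and 0.30 in the libraries labelled U138MG. *FBXW7*, a ligase component that targets MCL1, rose by 0.37 in the libraries labelled U138MG and was at 0.15 in KYSE30 (edgeR adjusted p = 0.124). *USP13* fell by 1.38 and 0.44. *BAG3* fell by 0.31 in KYSE30 and was at 0.023 in the libraries labelled U138MG (edgeR adjusted p = 0.709). *DYNLL1*, a dynein light chain that holds BIM, fell by 0.30 in the libraries labelled U138MG and was at -0.048 in KYSE30 (edgeR adjusted p = 0.492). The lists were written by hand with earlier results known, and exon overlaps were looked up for the 10 members only.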

How the data were processed

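The study sequenced poly-A RNA from 4 groups of 3 cultures, which were taken from the sample labels. For each line the authors deposited raw counts, the number of reads on each gene, with no normalization. Trimmomatic, STAR, featureCounts and hg38 are named in the submitters' processing notes without an order. The annotation and whether strand was used in counting are not given in the sources used here. The labels give KYSE30's culture medium for the libraries labelled U138MG too.

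The analysis used R 4.3.3 and edgeR 4.0.16, with DESeq2 1.42.0 as an alternative. Genes were kept by filterByExpr (minimum count 10, minimum total 15), and TMM factors gave the normalized CPM. Within a line, treated and control cultures were compared by the robust quasi-likelihood test of edgeR. P-values were adjusted over all tested genes by Benjamini and Hochberg, with a threshold of 0.05. An interaction term over both lines tested their difference. With 3 libraries a group, a two-sided exact permutation test cannot go below 0.1, so p-values come from the fit across genes. Totals ranged from 18800932 to 26514658 counts, and a count of 3 is at most 0.160 CPM, a limit of counting error only. No replicate pair agreed within sampling noise: chi-square per degree of freedom was 2.29 or more over genes with 20 counts or more. Exon lengths and overlaps came from GENCODE 29, which is not known to be the annotation used for counting, and promoters from RefSeq on GRCh38.p14. Figures were drawn in Python 3.11.15.

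The members and all gene lists were chosen with earlier results of these data known. All 10 members are reported. Some genes and lists outside the members are not reported here. From each other list, the text names at most 2 genes per direction and line, those with the largest change among genes with an adjusted p under 0.05, at least 5 normalized CPM in a group and no overlap between treatments, and any tested gene of the BCL2 family. *FOXO3* and *FOXO1* are named outside this rule, as are the cell type markers. The scripts were tested on simulated data. Alternatives were other scalings, DESeq2, other filters, a replicate block, leaving out single libraries, a joint fit of both lines, stricter thresholds and another gene length.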

Additional observations from a re-analysis of the deposited data

Results flagged for a closer look

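For 9 members the response to PTDSS1i differed between KYSE30 and the libraries labelled U138MG, by edgeR's quasi-likelihood test of the interaction of line and treatment with Benjamini-Hochberg adjustment, which 49.9% of 18405 tested genes passed. As the log2 fold change in the libraries labelled U138MG minus that in KYSE30, the difference was 1.085 for *BBC3*, 1.28 for *BAK1*, 0.45 for *BID*, 0.45 for *BAX* and 0.28 for *BCL2L1*. It was -1.79 for *BMF*, -0.64 for *PMAIP1*, -0.59 for *BCL2L11* and -0.15 for *MCL1*. In *BMF*, every KYSE30 culture with PTDSS1i was above every control and every such culture labelled U138MG was below. Line and batch cannot be told apart in these differences, and the libraries labelled U138MG carry squamous markers, whose part was not tested.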

How the results depend on the processing

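Over 500 values of single members under the alternatives, 453 kept their direction and their side of the threshold, 43 kept their direction and lost the call, 1 gained a call (*BAK1* in KYSE30) and 3 changed sign. The 43 include calls lost to stricter thresholds. A required log2 fold change beyond 1 removes the call of every member with a smaller change. The values that changed sign were differences for *BIK*, not called in any fit, which ranged from -0.079 to 0.052 over fits with 1 library left out, against -0.011 with all. In KYSE30 the number of lower members, 2 with all libraries, was 1 with DESeq2, 1 at an adjusted p under 0.01, 1 with both lines fitted together, and 1 to 2 with 1 library left out, where 1 came without DMSO replicate 1 or any PTDSS1i replicate. *BAX* was the call lost. With a log2 fold change beyond 1 required, the members were 1 higher and 0 lower in KYSE30 and 3 higher and 1 lower in the libraries labelled U138MG, and the difference between the lines was beyond 1 for 2 higher and 1 lower in the latter, since this limit adds a condition. The members called at 0.05 were otherwise within 1.5 times the counts given. With the longest transcript as length, 2 and 3 of 45 pairs of members changed order in KYSE30 with DMSO and PTDSS1i, and 3 and 6 in the libraries labelled U138MG. With upper-quartile scaling, the share of higher genes among all called in the libraries labelled U138MG was 37.1%, against 50.3%. The replicate numbers paired the cultures weakly at most. Same-numbered deviations correlated at 0.0204 to 0.0754 in KYSE30 and at -0.00288 to 0.0484 in the libraries labelled U138MG. For other numbers the range was -0.0760 to 0.00613 in KYSE30, below all same-numbered values, and -0.0638 to 0.0559 in the libraries labelled U138MG. With the replicate number as a block, 7 members were higher and 2 lower in KYSE30 and 8 and 2 in the libraries labelled U138MG, and 5081 of all genes were higher and 5377 lower in KYSE30, against 4927 and 5238 without it.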
